A study of Mus musculus with 6 samples.

Results

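GABA-A receptor subunit genes are described here in the cerebral cortex of mice, as a set of 7 named genes (Gabra2, Gabra3, Gabra4, Gabra5, Gabrb1, Gabrb2 and Gabrd) out of the 49315 genes counted. The genes were taken by name, and all 7 were counted in every library and kept by the filter on low counts. Other genes of the same receptor family were measured too and are set beside them further on. The 6 libraries came from wild type mice, 3 that carried a scrambled shRNA (AAV-PHP.eB-Gfap-GFP-shScr, called shScr) and 3 that carried an shRNA against Fabp7 (AAV-PHP.eB-Gfap-GFP-shFABP7, called shFabp7). Fabp7 encodes a fatty acid-binding protein of astrocytes, and the Gfap promoter of both vectors directs expression to astrocytes. The vector was injected behind the eye at 21 days of age. All mice of both groups then were given lipopolysaccharide (LPS, an endotoxin of gram-negative bacteria) at 4 months of age, with 3 weekly doses of 1 mg/kg and tissue collection 24 h after the final dose. No library without LPS or without vector was analysed here, so the comparison is between shRNAs under LPS. The series has the part of FABP7 in the astrocyte response to endotoxemia as its subject. The labels do not say that each library is a separate mouse, so what p-values weigh is how these libraries varied, which may be technical in part. By sex-linked genes read further on, each group held libraries of both sexes.

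GABA-A receptors are chloride channels built of subunits around a central pore and opened by GABA, the main inhibitory transmitter of the cortex. Most hold alpha and beta subunits with either a gamma subunit, which places the receptor at synapses, or a delta subunit, which places it outside them, where it carries tonic inhibition. The alpha subunit sets much of the kinetics, position and drug response: alpha2 is known from axon initial segments, alpha3 from deep cortical layers and monoaminergic nuclei, alpha4 as the partner of delta in forebrain neurons, and alpha5 from extrasynaptic receptors, most of all in the hippocampus. The beta subunits carry the GABA-binding face together with alpha and are needed for receptors to reach the membrane.

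The 7 transcripts encode related proteins but differ in their bases, which bears on whether short reads can be assigned to one of them. To show this, a coding stretch of the pore-lining helix is given below for each gene. It holds 60 bases from the longest protein-coding transcript in GENCODE M21 (GRCm38), 5′ to 3′. Capitals mark the 24 bases that encode the run of residues that all 7 translated transcripts had in common.
Gabra2: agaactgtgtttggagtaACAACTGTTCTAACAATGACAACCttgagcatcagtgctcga
Gabra3: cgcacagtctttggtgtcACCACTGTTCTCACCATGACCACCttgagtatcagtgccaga
Gabra4: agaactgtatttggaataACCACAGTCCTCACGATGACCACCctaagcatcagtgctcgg
Gabra5: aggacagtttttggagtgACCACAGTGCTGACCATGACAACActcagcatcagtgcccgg
Gabrb1: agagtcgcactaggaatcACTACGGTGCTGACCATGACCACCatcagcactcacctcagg
Gabrb2: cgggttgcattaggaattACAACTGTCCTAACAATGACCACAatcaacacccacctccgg
Gabrd: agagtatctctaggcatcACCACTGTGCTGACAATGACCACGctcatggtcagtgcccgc
Each stretch runs across a junction of 2 exons, so that its genome interval holds an intron. For Gabra2 it is chr5:70973581-71006119 on the minus strand (exons 8 and 9 of 10), for Gabra4 chr5:71624068-71633558 on the minus strand and for Gabrb1 chr5:72108824-72121995 on the plus strand (exons 7 and 8 of 9 in both). For Gabra3 it is chrX:72445340-72451516 and for Gabra5 chr7:57413751-57418232, both on the minus strand (exons 8 and 9 of 10 in both). For Gabrb2 it is chr11:42593937-42597587 on the plus strand (exons 8 and 9 of 10) and for Gabrd chr4:155386100-155386415 on the minus strand (exons 7 and 8 of 9). Even within the capitals, pairs of genes were identical at 18 to 21 of the 24 bases (21 pairs, median 19). Over the whole of these transcripts, the longest identical run of any pair was 24 bases, between Gabra3 and Gabra5, and the median over pairs was 14. The read length was not found in the labels or file headers.

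Total counts per library ranged from 16914012 to 18991235. Fabp7, the gene targeted, had 484, 285 and 290 reads in the shScr libraries (values are given in the order of libraries 1, 2 and 3 throughout) against 93, 41 and 66 in the shFabp7 libraries, and so was lower in every shFabp7 library. In edgeR's quasi-likelihood test its log2 fold change was -2.31 (adjusted p = 0.0704, and 0.0162 to 0.337 when 1 library was left out), and DESeq2 gave an adjusted p of 5.35e-13. The cortical excitatory neuron markers were present in all libraries, with a summed level of 4500, 6405 and 6211 CPM (the unit of all levels here, a gene's count relative to the TMM-scaled size of its library) in shScr and 7491, 8300 and 7160 in shFabp7. Libraries stood apart in markers of other brain regions, several of which express GABA-A subunits in another mix than the cortex. In hippocampal markers (9 genes, the most abundant Prox1 and Fibcd1) shScr library 3 summed to 134 CPM and the other 5 libraries to 42.2 to 52.3. In thalamic and hypothalamic markers (12 genes, the most abundant Slc17a6 and Plekhg1) shScr library 1 summed to 202 CPM and the others to 79.5 to 102. In striatal markers (12 genes, the most abundant Ppp1r1b and Penk) shScr library 1 and shFabp7 library 3 summed to 1197 and 1289 CPM and the others to 411 to 670. For the 7 genes, fold changes and shares are given with and without shScr libraries 1 and 3. This choice is one-sided, as shFabp7 library 3, also high in striatal markers, was kept. Values without shScr libraries 1 and 3 rest on shScr library 2 alone for that group, and follow its level.

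Levels are compared between genes as CPM per kb of exon, as the mean ± SD over all 6 libraries. Gabra3 had the highest level of the 7 at 31.3 ± 3.39 CPM per kb, and it lay above every other member in all 6 libraries. Gabrb2 followed at 20.8 ± 2.89, Gabrd at 19.8 ± 3.33, Gabra5 at 17.2 ± 5.44 and Gabra4 at 14.8 ± 1.31. Neighbours among these 4 were not separated by their spread. Gabrb2 exceeded Gabrd in 4 of 6 libraries, Gabrd exceeded Gabra5 in 5 and Gabra5 exceeded Gabra4 in 4. Both Gabrb2 and Gabrd, however, exceeded Gabra4 in all 6. Gabrb1 had 11.6 ± 1.12 and lay below Gabra4 in 5 of 6 libraries, and Gabra2 was lowest at 8.95 ± 1.61, below Gabrb1 in all 6. The exon length in the files joins all annotated transcripts, 13838 bp for Gabrb1 against 2875 bp for Gabrd, so a level per kb is understated where long exons are little used.

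Between the groups, 0 of the 7 genes passed the threshold of 0.05 on the adjusted p of edgeR's quasi-likelihood test, where 0.116% of all 17185 genes tested did. The differences were small and went both ways. Gabrd, Gabrb2, Gabra3 and Gabra4 had log2 fold changes (shFabp7 minus shScr) of 0.19 to 0.39, and Gabra2, Gabra5 and Gabrb1 of -0.29 to -0.14. The median of the 7 was 0.19, beside -0.01 over all genes tested. At an unadjusted p under 0.05 stood 3 of the 7 (Gabra3, Gabra4 and Gabrd), beside 16.8% of all genes, and DESeq2 called 1 of the 7 (Gabrd), beside 4.28% of the genes to which it gave an adjusted p. The libraries of the groups did not overlap for 2 genes with the higher values in shFabp7 (11.4% of all genes) and for 0 with the lower values there (11.5%). The summed level of the 7 was 120 ± 6.31 CPM per kb in shScr and 129 ± 4.63 in shFabp7 (SD, n = 3 each).

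**Figure D1:**
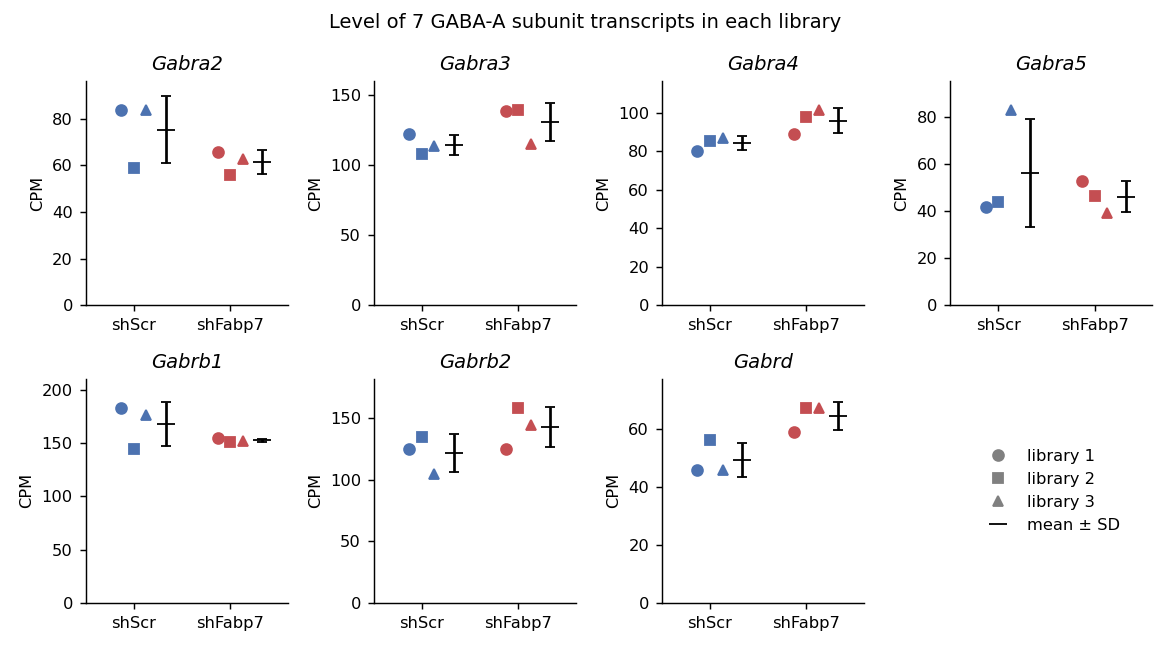
CPM (vertical axis, from 0) of each of the 7 genes in the 3 shScr and 3 shFabp7 libraries, marked by library number, with mean ± SD. All shFabp7 points lie above all shScr points for Gabra4 and Gabrd; shScr library 3 stands alone for Gabra5 at 82.9 CPM, and shScr libraries 1 and 3 stand above the rest for Gabra2.

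Gabrd, which encodes the delta subunit of extrasynaptic receptors, showed the clearest difference of the 7. Its level was 45.8, 56.1 and 45.9 CPM in shScr and 59.0, 67.2 and 67.05 CPM in shFabp7. All 3 shFabp7 libraries were thus above all 3 shScr libraries, with a gap of 2.95 CPM between shScr library 2 and shFabp7 library 1. The group means were 49.3 ± 5.92 CPM (shScr) and 64.4 ± 4.66 CPM (shFabp7; SD, n = 3 each). In edgeR the log2 fold change was 0.39 (SE 0.09, adjusted p = 0.107). By permutation of the libraries (exact, two-sided) p was 0.1, which 3 against 3 cannot go below. DESeq2 gave an adjusted p of 0.0262 at the same fold change, and edgeR without a filter on low counts gave 0.00014. The value stayed above 0 in all 16 alternatives, from 0.20 without shScr libraries 1 and 3 to 0.49 without shScr library 2, and with the latter the adjusted p was 0.0131. A regional score was also entered in the fit: the mean log2 CPM of the markers of hippocampus, striatum, thalamus and hypothalamus, ependyma and choroid plexus, less the mean for cortical excitatory neuron markers. With it the value was 0.25 (adjusted p = 0.646 in edgeR). The score itself was -2.24, -4.05 and -3.43 in shScr and -4.34, -4.89 and -4.01 in shFabp7. It thus ran lower in shFabp7, though shScr library 2 lay inside the shFabp7 range. It also subtracts excitatory neuron markers whose summed level was higher in shFabp7. A fit that holds score and group cannot fully separate them, so values with the score are given without a conclusion, here and below. In bulk tissue, a difference in the number of cells that carry a transcript and one in its amount per cell cannot be told apart, here and for every gene that follows.

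Gabra4, the alpha subunit that often pairs with delta, was the other gene with groups apart. Its level was 80.3, 85.5 and 87.2 CPM in shScr and 88.9, 97.8 and 101 CPM in shFabp7. The lowest shFabp7 library exceeded the highest shScr library by 1.71 CPM. This gave a log2 fold change of 0.19 (SE 0.07, adjusted p = 0.214 in edgeR), which ranged from 0.14 to 0.24 over the alternatives, with no adjusted p below 0.149. Without shScr libraries 1 and 3 it was 0.17.

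Gabra3 lies on the X chromosome and encodes the alpha3 subunit. Its level was 122, 108 and 114 CPM in shScr and 139, 139 and 115 CPM in shFabp7, so that shFabp7 library 3 lay within the shScr range and libraries 1 and 2 above it. Its log2 fold change was 0.19 (SE 0.08, adjusted p = 0.284 in edgeR). The labels give no sex, so it was read from 2 genes. Xist, the RNA that silences 1 X chromosome in females, had 17145 reads in shScr library 3, 12643 in shFabp7 library 2 and 17866 in shFabp7 library 3, against 44 to 70 in the others. Ddx3y, a Y-linked gene, had 16, 71 and 15 reads in these 3 libraries and 1105 to 1362 in the others, so that shFabp7 library 2 had the lowest Xist and the highest Ddx3y of the 3. The 3 Xist-high libraries held 114, 139 and 115 CPM of Gabra3 and the others 122, 108 and 139, which overlap. With sex so read as a covariate the log2 fold change was 0.22 (adjusted p = 0.403), and it was 0.28 when shScr libraries 1 and 3 were left out.

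Gabra2, whose product is found at axon initial segments and other synapses, had 83.7, 58.7 and 83.7 CPM in shScr and 65.7, 55.9 and 62.7 CPM in shFabp7. Libraries 1 and 3 of shScr were high and alike, while shScr library 2 lay within the shFabp7 range. With all libraries the log2 fold change was -0.29 (SE 0.14, adjusted p = 0.353 in edgeR). Without shScr library 2 it was -0.44 (adjusted p = 0.0166), and with no filter on low counts it was -0.30 (adjusted p = 0.00507), both past the threshold. With the regional score it was -0.01, and without shScr libraries 1 and 3 it was 0.06, on the other side of 0.

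Gabra5, which encodes the alpha5 subunit, varied most among the 7. Its level was 41.9, 43.9 and 82.9 CPM in shScr and 52.8, 46.4 and 39.4 CPM in shFabp7. Apart from shScr library 3, the 5 libraries lay between 39.4 and 52.8 CPM with the groups mixed. Over all 6 libraries the log2 fold change was -0.28 (SE 0.32, adjusted p = 0.708 in edgeR), and with the regional score it was -0.49. Without shScr library 3 it was 0.11 (adjusted p = 0.713), and with library 1 left out as well it was 0.07. That library was also the highest in hippocampal markers: Fibcd1, a marker of hippocampal CA1, had 49.4 CPM there and 7.38 to 13.4 elsewhere, and Dsp, a marker of the dentate gyrus, 8.55 CPM there and 0.121 to 0.923 elsewhere. Of the 9 hippocampal markers, 7 had a level in shScr library 3 that exceeded every other library. Fibcd1 and Dsp were named after their values were seen.

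Gabrb1 encodes a beta subunit expressed in neurons and in glia. Its level was 183, 144 and 176 CPM in shScr and 154, 151 and 152 CPM in shFabp7. The 3 shFabp7 libraries were close to each other, inside the wider shScr range. Its log2 fold change of -0.14 (SE 0.09) had an adjusted p of 0.439 in edgeR. With the regional score it was 0.03, and it was 0.08 when shScr libraries 1 and 3 were left out, both on the other side of 0.

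Gabrb2, which encodes a beta subunit, had 125, 135 and 105 CPM in shScr and 125, 158 and 145 CPM in shFabp7. Libraries 2 and 3 of shFabp7 were above all of shScr, and shFabp7 library 1 lay within the shScr range. A log2 fold change of 0.23 resulted (SE 0.11, adjusted p = 0.340 in edgeR), and it ranged from 0.08 without shScr libraries 1 and 3 to 0.32 without shFabp7 library 1. With no filter on low counts its adjusted p was 0.0354.

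**Figure D2:**
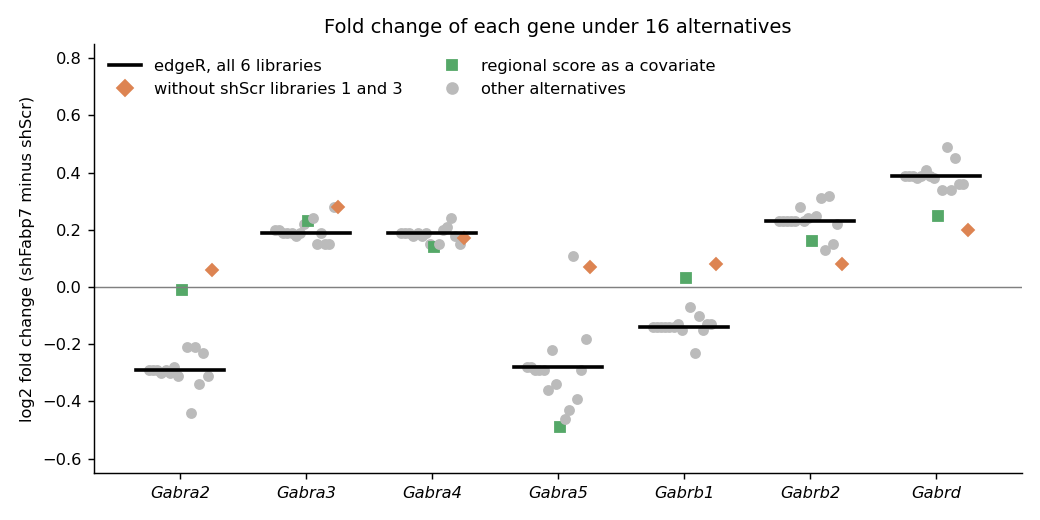
Log2 fold change (vertical axis, shFabp7 minus shScr) of each of the 7 genes with all 6 libraries (bars) and under 16 alternatives (points). Gabra3, Gabra4, Gabrb2 and Gabrd stay above 0 throughout; Gabra2, Gabra5 and Gabrb1 cross 0 without shScr libraries 1 and 3.

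The make-up of the set was read from the share of each gene in the summed CPM per kb of the 7, which does not use the scaling between libraries. The share of Gabrd was 13.5%, 16.9% and 12.5% in shScr and 16.1%, 17.5% and 18.7% in shFabp7. The share of Gabrb1 was 11.2%, 9.06% and 9.99% in shScr and 8.74%, 8.17% and 8.79% in shFabp7. It was the 1 share of 7 whose groups did not overlap, by 0.27 percentage points. Exact two-sided permutation tests gave p = 0.1 for the Gabrb1 share and p of 0.2 to 0.6 for the others, and the adjusted p over the 7 shares was 0.467 for 6 of them and 0.6 for that of Gabrb2. The share of Gabra5 was 21.9% in shScr library 3 and 10.7% to 13.9% in the other 5 libraries. Gabra3 had the largest share in every library, from 22.8% to 27.7%. Shares were also compared with shScr libraries 1 and 3 left out. The difference in mean share (shFabp7 minus shScr) then went from 3.11 to 0.49 percentage points for Gabrd and from -1.51 to -0.50 for Gabrb1. It went from -1.91 to -0.41 for Gabra2 and from -3.48 to -0.74 for Gabra5. The difference for Gabrb2 turned sign, from 1.43 to -0.99 points, that for Gabra4 went from 0.74 to 0.09 and that for Gabra3 from 1.62 to 2.05. Without division by exon length the Gabrb1 difference was -3.06 points.

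**Figure D3:**
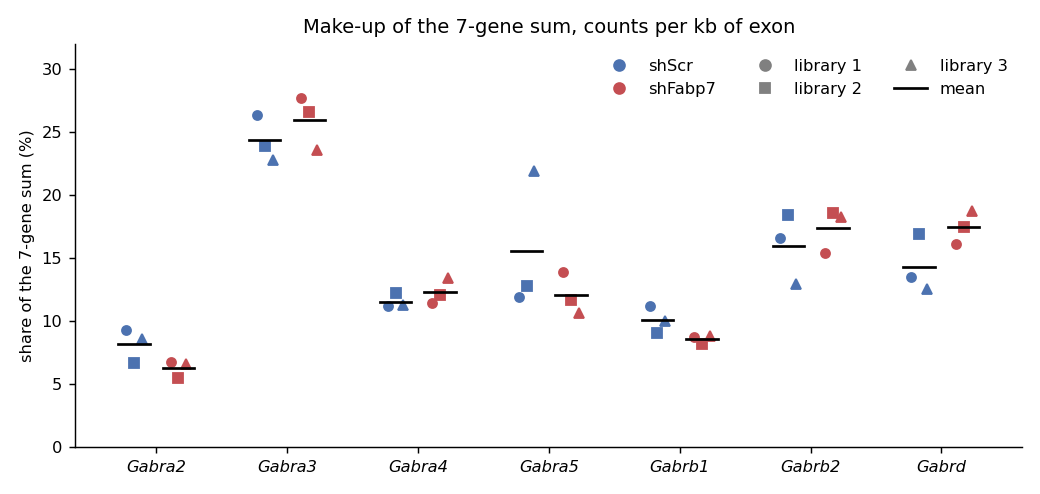
Share of each gene in the summed counts per kb of exon of the 7 genes (vertical axis, percent) in each library, with group means as bars. Gabra3 holds the largest share throughout, and the shares of the groups overlap for 6 of the 7 genes, all but Gabrb1.

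Subunit genes lie in clusters, and the members were also set out by their place in the genome (positions as in the files, read as GRCm38). On chromosome 5, Gabra2 (70957597 to 71095849, minus strand), Gabra4 (71569749 to 71658308, minus strand) and Gabrb1 (71658113 to 72149037, plus strand) are neighbours, with Gabrg1 on the near side of Gabra2. Gabra4 and Gabrb1 start head to head, and 46 bp of their exons overlap on opposite strands, 0.756% of the exon length of Gabra4. No source used here gives the strand setting of the counting, and without it the reads in those bases cannot be assigned to one gene or the other. Over all 6 libraries their log2 fold changes of 0.19 and -0.14 had opposite signs, but without shScr libraries 1 and 3 they were 0.17 and 0.08. The ratio of Gabra4 to Gabrb1, both per kb, was 0.999, 1.35 and 1.13 in shScr and 1.31, 1.47 and 1.52 in shFabp7. The means were 1.16 ± 0.176 and 1.43 ± 0.111 (SD, n = 3 each), with shScr library 2 inside the shFabp7 range. This ratio was chosen after the values were seen. Gabra5 (chromosome 7, 57407672 to 57510059, minus strand) shares 148 bp of exon (4.98%) with Gm9962 on the opposite strand, which had at most 62 reads in a library. Gabrb2 lies on chromosome 11 (42419757 to 42629028, plus strand), Gabra3 on chromosome X (72432681 to 72656848, minus strand) and Gabrd on chromosome 4 (155384980 to 155398112, minus strand). Gabra2, Gabra3, Gabrb2 and Gabrd shared no exon base with another gene in the files.

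**Figure D4:**
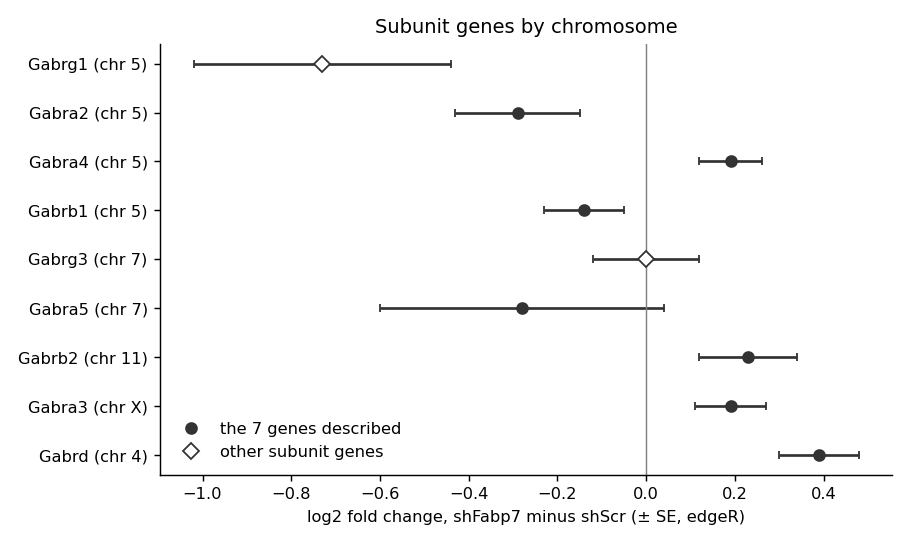
Log2 fold change (horizontal axis, shFabp7 minus shScr, ± SE from edgeR) of the 7 genes (filled) and of Gabrg1 and Gabrg3 (open), in order along each chromosome. Within chromosome 5 and with all 6 libraries, Gabra4 lies on the other side of 0 from Gabrg1, Gabra2 and Gabrb1 (Gabra2 and Gabrb1 turn sign without shScr libraries 1 and 3), and none of the 9 passed the threshold.

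Of the 12 other GABA-A subunit genes, 7 had enough counts to test, and 0 of them passed. Gabrg3, a gamma subunit gene, had a log2 fold change of -0.0013 that turned sign in 9 alternatives. Gabrg1, another gamma subunit gene, had 57.7, 30.1 and 30.6 CPM in shScr and 24.9, 21.3 and 25.05 CPM in shFabp7. All shFabp7 libraries were lower, and shScr library 1 stood far above the rest. This came to a log2 fold change of -0.73 (SE 0.29, adjusted p = 0.296 in edgeR and 0.0240 in DESeq2), -0.08 with the regional score and -0.35 once shScr library 1 was left out. Gabrr2, a rho subunit gene of low level, had 5, 7 and 7 reads in shScr and 24, 11 and 30 in shFabp7, with a log2 fold change of 1.84 (adjusted p = 0.106 in edgeR).

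Subunit genes outside the usual cortical set showed the library differences most plainly. Gabrq, which encodes the theta subunit, had 19.9, 3.03 and 1.04 CPM in shScr and 1.37, 0.547 and 0.640 CPM in shFabp7. Its log2 fold change was -3.22 (adjusted p = 0.340 in edgeR), and -1.25 without shScr library 1. Gabre, which encodes the epsilon subunit, was filtered out as low, with 154, 16 and 2 reads in shScr and 3, 2 and 1 in shFabp7. Both were highest in shScr library 1, the library highest in thalamic and hypothalamic markers, in which Pmch, a neuropeptide gene of the lateral hypothalamus, had 13.2 CPM against 0.179 to 1.27 elsewhere and Avp, the vasopressin gene, 38.8 against 0.213 to 4.89. Of the 12 thalamic and hypothalamic markers, 7 were highest in that library and 3 were lowest there, among them Plekhg1 at 13.6 CPM against 17.9 to 20.8 elsewhere. Pmch and Avp were named after their values were seen. The part of these markers in the subunit values was not tested. The regional score ran lower in shFabp7, though with shScr library 2 inside the shFabp7 range, and the fit without shScr libraries 1 and 3 kept 1 shScr library. Gabra6, known from cerebellar granule cells, had 2 reads in shFabp7 library 3 and 0 in the other 5 libraries, and Gabrp had 0 in all 6, where a count of 0 allows up to 3 reads per library. Gabrr1 and Gabrr3 had 0 to 3 reads per library.

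**Figure D5:**
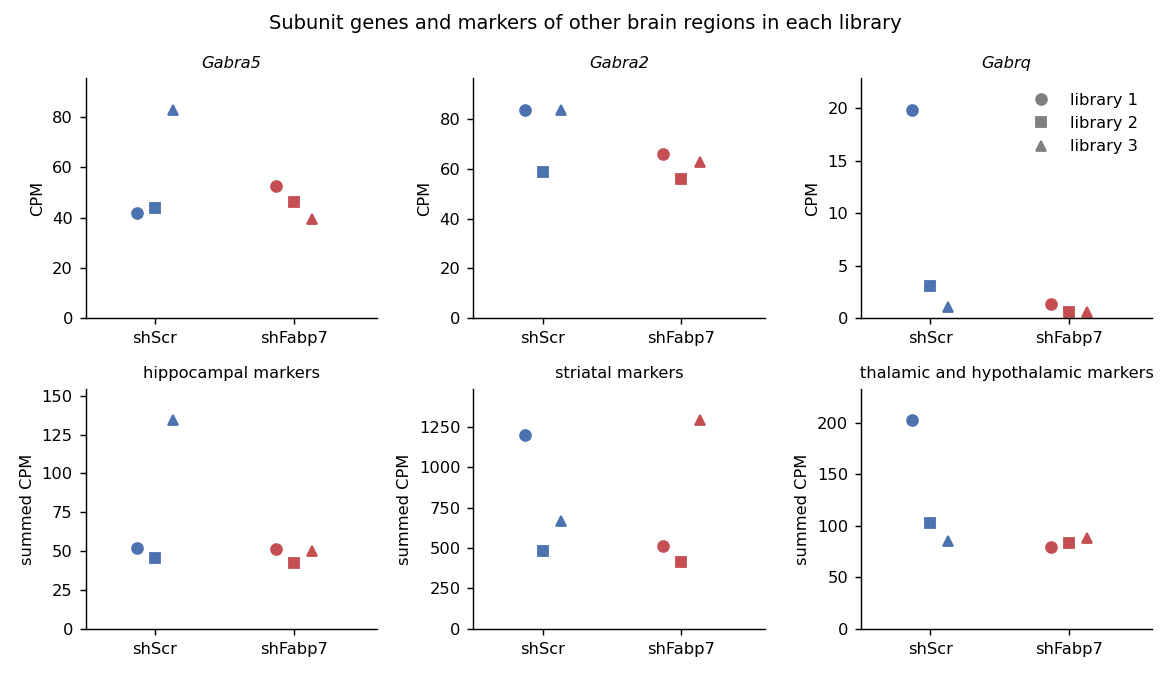
CPM of Gabra5, Gabra2 and Gabrq (top row) and summed CPM of markers of other brain regions (bottom row) in each library, marked by library number. Gabra5 and the hippocampal markers (134 CPM) are highest in shScr library 3, and Gabrq and the thalamic and hypothalamic markers (202 CPM) in shScr library 1.

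The wider GABA pathway was described from 4 lists. Of 22 genes that anchor or traffic the receptors (23 listed), 0 passed, 13 had values above 0 and the median was 0.05. The most abundant, Nsf, a membrane fusion ATPase, and Gabarapl1, a relative of the GABA-A receptor-associated protein, had -0.05 and 0.08, and Nsf turned sign without shScr library 3. The lowest adjusted p of that list was 0.128 for Plcl1, a receptor-binding inactive phospholipase, at 0.33. Of 10 genes of GABA synthesis, transport and breakdown, 0 passed, 9 were below 0 and the median was -0.27. The synthesis enzyme gene Gad1 had -0.08 and turned sign with the setting, and Slc6a13, a GABA transporter of the meninges, had -0.77 with the lowest adjusted p of the list (0.193 in edgeR, 0.0335 in DESeq2). Its value was -0.34 with the regional score, -0.28 when shScr libraries 1 and 3 were left out and -0.97 without shScr library 2 (adjusted p = 0.0282). Of 8 genes of the GABA-B receptor, the metabotropic GABA receptor, and its partners, 0 passed, 5 were above 0 and the median was 0.14. Gabbr1 had 0.08. Gabbr2 had 242, 294 and 317 CPM in shScr and 403, 416 and 375 CPM in shFabp7, groups that did not overlap. Its log2 fold change of 0.48 had an adjusted p of 0.0779 in edgeR and 0.000995 in DESeq2, and was 0.28 with the regional score. Kcnj6, a potassium channel opened by these receptors, had 0.58 and the lowest adjusted p of the list (0.0706 in edgeR, 0.00216 in DESeq2), and 0.33 with the regional score (adjusted p = 0.506). Of 9 genes of chloride transport, which sets the direction of GABA-A current, 0 passed, 6 were above 0 and the median was 0.07. The chloride exporter gene Slc12a5 had 0.16 and the kinase gene Wnk1 0.07, and Stk39, a kinase that acts on chloride cotransporters, had 0.34 with the lowest adjusted p of the list (0.0912 in edgeR, 0.0234 in DESeq2), and 0.21 with the regional score. Gabbr2 and Kcnj6 passed the threshold when shScr library 1 was left out (adjusted p = 0.0372 and 0.0461) and when shScr library 2 was (0.0400 and 0.0249), as did Stk39 without shScr library 2 (0.0266). Plcl1, Slc6a13, Kcnj6 and Stk39 were named after their values were seen.

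Markers of other cell types were read beside these values, with 0 members of any list past the threshold. The 14 interneuron markers summed to 585 to 661 CPM in shScr and 641 to 688 CPM in shFabp7 (median log2 fold change of -0.22, most abundant Lamp5 and Reln). The 12 excitatory neuron markers (most abundant Camk2a and Slc17a7) had a median of 0.44 with 11 above 0. Gabrd, Gabra4, Gabra3 and Gabrb2 were above 0 too, while Gabra2, Gabra5 and Gabrb1 were below, and a link was not tested. The summed level of these markers did not overlap between the groups, nor did the level of Camk2a alone, but Slc17a7 overlapped. The 10 astrocyte markers (most abundant Slc1a2 and Aldoc) summed to 4678 to 5153 CPM in shScr and 4888 to 5387 CPM in shFabp7, with a median of 0.03. Single markers went both ways, from -0.79 to 0.26, with a lowest adjusted p of 0.0597 in edgeR. The groups did not overlap for 2 of the 10 with higher values in shFabp7 (11.4% of all genes) and for 4 with lower values there (11.5%). Oligodendrocyte lineage (most abundant Mbp), microglia (most abundant Csf1r) and endothelial (Flt1 and Slco1a4) markers had medians of 0.01, -0.13 and 0.10. Hippocampal, striatal, thalamic and hypothalamic, and ependymal and choroid plexus markers (the last led by Enpp2 and Foxj1) had medians of -0.68, -0.23, -0.35 and -0.58. The summed level of the ependymal and choroid plexus list went the other way from its median, with 180, 221 and 212 CPM in shScr and 249, 274 and 242 CPM in shFabp7, and its most abundant gene Enpp2 had a log2 fold change of 0.44.

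The genes most like each member were taken as those with the smallest root mean square difference in centred log2 CPM over the 6 libraries, among 11646 genes with a mean of at least 5 CPM. Gabra2 was closest to Gria1, an AMPA receptor subunit gene (0.026), then Mapk3 (0.039) and Prkg2 (0.041). Gabra4 was closest to Rhobtb2 and Zfp511 (0.021 each) and Trem2 (0.026), and Gabra3 to Rdh14 (0.025), Pcdha5 (0.037) and Hey1 (0.045). Gabrb1 was closest to Casd1 (0.020), Hspb8 (0.026) and Cdh2 (0.027), and Gabrb2 to Tmc7 (0.036), Adam23 (0.048) and Ppip5k2 (0.049). Gabrd was closest to Heg1 (0.026), Foxo3 and Ism1 (0.029 each). No gene followed Gabra5 as closely: the nearest were Neurod1 (0.131), Scarf2 (0.132) and Cdkl4 (0.140), beside a standard deviation of 0.39 of Gabra5 itself. The likeness is a description of these 6 libraries, with no test.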

How the data were processed

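RNA of the cerebral cortex was sequenced as stranded mRNA libraries, per the labels' protocols. The deposited values are raw counts of reads per gene with no scaling, laid out as featureCounts writes them per the file headers. Trimmomatic 0.36, STAR 2.5.2b, Subread 1.5.2, DESeq2 and GRCm39 appear in the submitters' processing notes, with no role or order. Of 48970 gene IDs found in GENCODE M21 (GRCm38), 91.4% had the same position, all 7 members among them, so positions are read as GRCm38. Groups and replicate numbers came from the titles.

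Genes were filtered with filterByExpr (17185 left) and scaled by TMM. Groups were compared by edgeR's quasi-likelihood test (edgeR 4.0.16, R 4.3.3, robust, no covariate), with p-values adjusted by Benjamini and Hochberg's method across the genes tested and called under 0.05. Standard errors were taken as the size of the fold change (log2) over the root of its F value. Alternatives used DESeq2 1.42.0, limma 3.58.1 (voom), other scaling, filters and covariates, and each library left out. The fit without shScr libraries 1 and 3 was added after the data were seen; it leaves 1 shScr library, assumed to vary like the 3 of shFabp7. The members and gene lists were chosen with earlier results of these data known. Named by rule were all members, the 3 genes nearest each in profile (pseudocount of 0.5 CPM), the other tested subunit genes, and from each list the genes past the threshold or else the 2 most abundant; a few genes that the rule names are not reported here. On simulated counts of 17185 genes for shFabp7 against shScr, edgeR recovered 45.3%, 77.6% and 96.0% of genes changed 1.5-fold, 2-fold and 4-fold. Of its calls there, 4.75% were false. In the simulated counts the spread of each gene followed a trend with its level. No differences of region or sex between libraries were added to them. In the measured counts the targeted gene, Fabp7, was not called at a fold of 0.202 (edgeR, adjusted p = 0.0704). The simulated rates may thus overstate what could be detected in the measured counts, and whether they hold there was not tested. No library was a copy of another (chi-square per degree of freedom 6.32 to 36.3).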

Additional observations from a re-analysis of the deposited data

How the results depend on the processing

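The count of genes called moved from 20 to 679 with DESeq2, 1617 with no filter, 292 at a threshold of 0.1, 7 with sex and 9 with the regional score as a covariate, and 120 without shScr libraries 1 and 3; leaving out 1 library gave 0 (without shFabp7 library 2 or 3) to 900 (without shScr library 2). The count of the 7 genes called, 0 in edgeR, was 1 with DESeq2 (Gabrd) and 3 with no filter (Gabra2, Gabrb2 and Gabrd). It was 0 to 2 when 1 library was left out (2, Gabra2 and Gabrd, without shScr library 2). Over all genes, DESeq2 called 679 of the 15849 given an adjusted p. With no filter 1617 of 30935 genes were called, and without shScr library 2, 900 of 17522. The shares whose groups did not overlap, 1 of 7, numbered 1 to 4 when 1 library was left out. They were 4 without shScr library 2 or without shFabp7 library 1, and 2 without shFabp7 library 3. Groups of fewer libraries stand apart more readily, and no share over all genes is at hand for these counts. Of 112 log2 fold changes of the 7 genes under alternatives, 100 kept their direction and stayed on the same side of the threshold, 7 passed it and 5 turned sign. The 5 were Gabra2 (0.06), Gabra5 (0.07) and Gabrb1 (0.08) without shScr libraries 1 and 3, Gabra5 without shScr library 3 (0.11, in a range of -0.46 to 0.11 when 1 library was left out) and Gabrb1 with the regional score (0.03).

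Among other genes, sign turned for Gabrg3 (0.0026 with DESeq2 or RLE factors, 0.07 with voom, 0.08 with sex, 0.13 with the regional score, 0.01 with the replicate block, and 0.12, 0.01 and 0.02 without shScr library 1, shScr library 2 or shFabp7 library 3, in a range of -0.13 to 0.12 when 1 library was left out). It also turned for Nsf (0.01 without shScr library 3 and without shScr libraries 1 and 3, in a range of -0.07 to 0.01 when 1 library was left out) and Gad1 (0.06 with the regional score and 0.01 without shScr library 1, in a range of -0.17 to 0.01 when 1 library was left out). The cause was not tested. The replicate block called 629 genes and 1 of the 7 (Gabrd, adjusted p of 0.0320). Same-numbered libraries had correlations of deviations of 0.0808, 0.154 and 0.0573, and not every library correlated best with its own number, so the numbers were not taken as pairs.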
